A study of Homo sapiens with 18 samples.

Results

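The 9 mRNAs described here, MYC, IGF1R, FGF2, VEGFA, VEGFC, XIAP, CDKN1B, APAF1 and UTRN, have been reported to hold internal ribosome entry sites and have been proposed as targets of rRNA methylation. They were taken by name from a table of 17017 gene symbols, with earlier results of these data known. All 9 were present in the table. An internal ribosome entry site (IRES) is an RNA segment, mostly in the 5' untranslated region, that can recruit a ribosome inside the mRNA, without scanning from the 5' cap. Such elements have been described most often in mRNAs for growth factors, cell-death regulators and cell-cycle regulators, and proteins known as IRES trans-acting factors (ITAFs) bind them. Fibrillarin (FBL) is the nucleolar methyltransferase that, within box C/D small nucleolar ribonucleoproteins, places 2'-O-methyl groups on ribosomal RNA.

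The cells were MDA-MB-231, an established human triple-negative breast carcinoma line. Lentiviral particles delivered a short hairpin RNA directed at fibrillarin mRNA or a scrambled sequence, and transduced cells were selected with puromycin, so all 3 treatments share transduction and selection. The treatments are labelled SC, read here as the scramble, and SH2 and SH3, the hairpins. The protocols speak of knockdowns 1 and 2, but how SH2 and SH3 map to these is not labelled. All cells received cycloheximide, which halts elongating ribosomes, before lysis. Cytoplasmic input RNA and ribosome footprints were sequenced in 3 replicates of each treatment, for 18 libraries.

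RNA libraries held 23469830 to 27629488 counts and footprint libraries 1662705 to 6098648, with mean footprint totals of 4790944 in SC, 3424210 in SH2 and 2421550 in SH3. Levels are CPM, library-scaled counts from edgeR with TMM factors, given for replicates 1, 2 and 3 in that order. The scaling used no added standard, so every rise or fall is relative to the other genes of the libraries. A change in total RNA or total translation would not show. FBL, the targeted gene, had an RNA level of 388 ± 36.4 CPM in SC, against 5.67 ± 5.09 in SH2 and 3.49 ± 0.612 in SH3 (mean ± SD over 3 libraries). Of the markers checked for the line, VIM (5580 CPM), CD44 (316), AXL (1490), MSN (378) and CAV1 (163) were present in SC RNA, whereas SPARC was at 0.58 CPM. Of the genes checked as low markers of the line, ESR1, PGR and CDH1 were at 0.0273, 0.0672 and 0.337 CPM, and EPCAM and GATA3 at 5.66 and 8.03. ERBB2 and KRT18, checked with them, were not low here, at 95.3 and 494 CPM. Nothing in the labels says that replicates came from separate cultures, so p-values measure the spread between these libraries. The SC libraries serve both comparisons, and the 2 hairpins' changes therefore share the chance values of SC. "Called" means an adjusted p-value under 0.05 in edgeR's quasi-likelihood test, adjusted over all genes tested. In bulk RNA, fewer cells with a transcript and less transcript per cell cannot be told apart.

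In RNA, 4 of the 8 members tested were called higher and 2 lower in SH2, where 61.4% of all 12710 genes were called, 31.1% higher and 30.4% lower. The SH3 counts were 5 higher and 1 lower, where 53% of all genes were called, 27.8% higher and 25.2% lower. The 6 of 8 members called in each hairpin are read against these shares: more genes tested were called than were not. In footprints, 3 members were called higher and 1 lower in SH2, where 44.2% of 10345 genes were called (21% higher, 23.2% lower). For SH3 the counts were 4 and 1, beside 35.9% of genes called (16.9% higher, 19% lower). The members' median log2 change was 0.16 in SH2 RNA and 0.36 in SH3 RNA, beside 0.01 and 0.03 over all genes. In footprints it was 0.22 and 0.58, beside 0.00 and -0.01. FGF2, the ninth member, did not pass the filter on low counts.

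**Figure D1:**
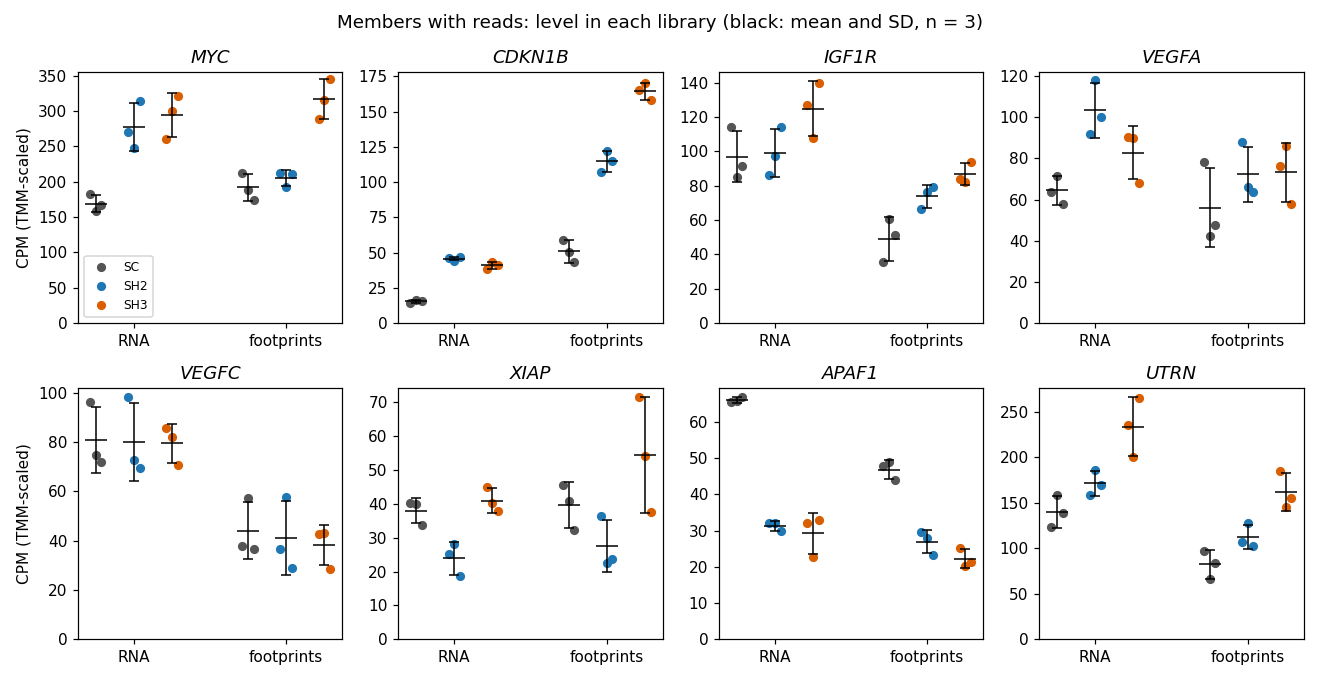
Level of each of the 8 members with reads in every RNA and footprint library (y axis, TMM-scaled CPM; points are libraries, black marks are the mean and SD, n = 3). CDKN1B in SC lies far under both hairpins in RNA and in footprints, and APAF1 lies above both.

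MYC encodes a transcription factor that binds DNA as a dimer with MAX and drives growth and proliferation. Its RNA measured 182, 158 and 167 CPM in the SC replicates, 270, 248 and 314 in those of SH2 and 261, 300 and 322 in those of SH3. Every hairpin library lay above every SC library. MYC RNA rose by 0.72 on the log2 scale in SH2 (SE 0.11, adjusted edgeR p 8.25e-05) and by 0.80 in SH3 (SE 0.11, adjusted edgeR p 5.09e-05).

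MYC footprints measured 213, 189 and 174 CPM in the SC replicates, 213, 193 and 211 in those of SH2 and 289, 315 and 346 in those of SH3. The SH2 and SC libraries overlapped, and all 3 SH3 libraries lay above them. In SH3 the footprints rose by 0.72 (SE 0.13, adjusted edgeR p 6e-04), close to the RNA value. In SH2 the difference from SC was 0.10 (SE 0.13, adjusted edgeR p 0.563). Set against each other, MYC footprints were lower in SH2 than in SH3 by a log2 difference of -0.62 (SE 0.13, adjusted edgeR p 0.00303). Of the members, 4 were lower in SH2 footprints than in SH3 and 0 higher, where 23.8% of all genes were called (12.1% higher, 11.6% lower).

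Translational efficiency (TE) compares how a gene's footprints and its RNA changed, tested as an interaction over all 18 libraries. The low-count filter for TE took these libraries together. The 12531 genes tested in TE thus include some that did not pass the footprint filter, which kept 10345. MYC was the 1 member called in TE in SH2, where 3.9% of 12531 genes were called (1.44% higher, 2.46% lower). Its log2 footprint-to-RNA ratio, taken between libraries of the same number, was 0.23, 0.26 and 0.06 in SC, -0.34, -0.36 and -0.57 in SH2 and 0.15, 0.07 and 0.10 in SH3. The SH2 libraries lay apart from the others, and SC and SH3 overlapped. MYC TE fell by 0.63 in SH2 (SE 0.17, 95% interval -0.98 to -0.28, adjusted edgeR p 0.039), while the SH3 value was -0.07 (95% interval -0.42 to 0.28, adjusted edgeR p 0.923). The difference between SH2 and SH3 was -0.56 (SE 0.17, 95% interval -0.91 to -0.21, adjusted edgeR p 0.168). The SH2 call was lost whichever library was left out: the adjusted edgeR p was 0.074, 0.0691 and 0.0889 without SC replicate 1, 2 or 3, and 0.0827, 0.0572 and 0.178 without SH2 replicate 1, 2 or 3. It was also lost with DESeq2 size factors (0.0502), with only the groups compared (0.0815) and with same-numbered RNA and footprint libraries paired (0.0501). Thinning footprint libraries to equal depth, a setting added once the data had been seen, lost it too (0.0648). The log2 values over these settings stayed between -0.68 and -0.54.

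The MAX network holds the partners and antagonists of MYC. Of its 12 genes apart from MYC, 5 were called higher and 5 lower in SH2 RNA, with a median log2 change of -0.01, and 8 higher and 2 lower in SH3 RNA, with a median of 0.38. Over all genes the RNA shares were 61.4% in SH2 and 53% in SH3, with medians of 0.01 and 0.03. In footprints the counts were 4 higher and 3 lower in SH2, against 4 and 1 in SH3, where 44.2% and 35.9% of all genes were called. MXD1, a MAX partner that represses MYC targets, rose in RNA by 2.30 in SH2 and 2.12 in SH3, and in footprints by 2.22 and 2.25. MXD3, of the same family, changed by -1.94 and -1.98 in RNA and by -2.60 and -1.61 in footprints. MXD4 RNA rose by 1.15 and 0.70, and RNA of ZBTB17, the MYC-binding factor MIZ1, rose by 0.95 and 0.33. The ZBTB17 call in SH3 was lost without SH3 replicate 2, at a log2 change of 0.24. MAX itself rose in footprints by 0.64 in SH2 and 0.69 in SH3 (0.99 and 1.16 at equal, thinned depth), and MNT, a further repressor of the network, by 0.69 and 0.60. The MNT calls were lost without SC replicate 3 in both hairpins (0.54 and 0.46), and in SH3 also without SH3 replicate 3 (0.45) and with thinned libraries (0.66). In TE, 0 of the 12 genes were called in either hairpin by edgeR, and 1 and 0 by the DESeq2 Wald test. At an unadjusted edgeR p under 0.05 there were 5 in SH2 and 2 in SH3, beside 2248 and 1574 of all 12531 genes.

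Among the growth factors, VEGFA and VEGFC encode secreted ligands of blood and lymphatic vessel growth. VEGFA RNA measured 63.9, 71.7 and 57.8 CPM in the SC replicates, 91.9, 118 and 100 in those of SH2 and 90.5, 89.9 and 68.1 in those of SH3. All SH2 libraries lay above SC, while SH3 replicate 3 fell within the SC range. VEGFA RNA rose by 0.68 in SH2 (SE 0.13, adjusted edgeR p 0.000464) and by 0.36 in SH3 (SE 0.13, adjusted edgeR p 0.0316). The SH3 call was lost without SC replicate 1 (0.34, adjusted edgeR p 0.0672) or 3 (0.29, 0.132) and without SH3 replicate 1 (0.25, 0.167) or 2 (0.27, 0.16).

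VEGFA footprints measured 78.1, 42.5 and 47.6 CPM in the SC replicates, 87.8, 66.0 and 63.5 in those of SH2 and 76.1, 85.9 and 57.8 in those of SH3. SC replicate 1 lay well above the other 2 SC libraries and within the range of both hairpins. The differences of 0.34 in SH2 and 0.36 in SH3 (SE 0.22 each) did not pass the test (adjusted edgeR p 0.213 for both). Without SC replicate 1 they were 0.67 (adjusted edgeR p 0.00958) and 0.70 (adjusted edgeR p 0.00942), and both were called.

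VEGFC RNA measured 96.0, 74.6 and 71.7 CPM in the SC replicates, 98.2, 72.5 and 69.3 in those of SH2 and 85.8, 81.8 and 70.5 in those of SH3. The 3 groups overlapped throughout, and replicate 1 was the highest in each. The RNA differences were -0.01 (95% interval -0.32 to 0.30) in SH2 and -0.02 (95% interval -0.34 to 0.29) in SH3, and these signs turned with plain library totals (0.08 and 0.07). VEGFC footprints measured 38, 57.3 and 36.6 CPM in the SC replicates, 36.7, 57.6 and 28.8 in those of SH2 and 42.7, 43.1 and 28.7 in those of SH3. They overlapped likewise, with differences of -0.06 (adjusted edgeR p 0.876) and -0.18 (adjusted edgeR p 0.607).

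FGF2, a fibroblast growth factor known for translation from several start codons, was close to unread in these libraries. Its count was 0 in 16 of 18 libraries, 2 in the RNA of SH3 replicate 2 and 1 in the footprints of SC replicate 1. A count of 0 over the SC RNA libraries allows a level of up to 0.0387 CPM, and over the SH2 footprint libraries up to 0.292 CPM, for counting error only. No comparison of FGF2 was made. NUDT6, which overlaps FGF2 on the opposite strand and is named here after its values were seen, had 219 to 336 counts in the SC RNA libraries. Whether the counting used strand is not stated.

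IGF1R encodes the receptor tyrosine kinase for insulin-like growth factor 1. IGF1R RNA measured 114, 85.3 and 91.8 CPM in the SC replicates, 86.4, 97.3 and 114 in those of SH2 and 127, 108 and 140 in those of SH3. SH2 overlapped SC fully, and SH3 replicate 2 lay under SC replicate 1. The SH2 difference was 0.03 (adjusted edgeR p 0.843). In SH3 IGF1R RNA rose by 0.36 (SE 0.14, adjusted edgeR p 0.0355). This call was lost without SC replicate 2 (0.28, adjusted edgeR p 0.129) or 3 (0.32, 0.112), without SH3 replicate 1 (0.31, 0.12) or 3 (0.24, 0.22), with DESeq2 size factors (0.34, 0.0511) and with only the groups compared (0.33, 0.0513).

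IGF1R footprints measured 35.4, 60.7 and 51.3 CPM in the SC replicates, 66.3, 76.2 and 79.3 in those of SH2 and 83.7, 82.2 and 94.0 in those of SH3. Every hairpin library lay above every SC library. Footprints rose by 0.61 in SH2 (SE 0.18, adjusted edgeR p 0.0106) and by 0.84 in SH3 (SE 0.18, adjusted edgeR p 0.0019). At equal, thinned depth the SH2 value was 0.47 and lost its call (adjusted edgeR p 0.142). The TE difference of IGF1R was 0.58 in SH2 (95% interval 0.10 to 1.05, adjusted edgeR p 0.172) and 0.50 in SH3 (95% interval 0.02 to 0.98, adjusted edgeR p 0.364). Both missed the threshold after adjustment over all genes. Over the settings tried they spanned 0.26 to 0.80 in SH2 and 0.18 to 0.72 in SH3. The footprint-to-RNA ratios of SC, at -1.67, -0.49 and -0.83 on the log2 scale, were widely spread and overlapped those of each hairpin.

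Ligands, receptors and adaptors of the same pathways were read from a list of 24 genes, of which 20 passed the RNA filter and 16 the footprint filter. In RNA, 11 were called higher and 4 lower in SH2, against 12 and 6 in SH3, with median log2 changes of 0.58 and 0.57, beside 61.4% and 53% of all genes called and medians of 0.01 and 0.03. In footprints, 10 were called higher and 1 lower in SH2, against 8 and 1 in SH3, with medians of 0.68 and 0.60, beside 44.2% and 35.9% of all genes and medians of 0.00 and -0.01. NRP1, a co-receptor for VEGFA, rose in footprints by 1.64 in SH2 and 0.92 in SH3, and IRS2, an adaptor of the IGF1 receptor, by 1.65 and 1.65. FLT1, a VEGFA receptor, changed by -1.51 (SE 0.37) and -3.91 (SE 0.50) in RNA. Over the settings tried its SH3 value spanned -5.04 to -3.60. FGFR4, a fibroblast growth factor receptor, changed by -1.03 (SE 0.21) and -1.41 (SE 0.22). GPC1, a heparan sulfate proteoglycan, rose by 2.23 and 0.65 in RNA and by 2.38 and 0.82 in footprints. The GPC1 RNA call in SH3 was lost without SC replicate 1 (0.48) or 3 (0.65) and without SH3 replicate 2 (0.56) or 3 (0.48) and with the DESeq2 Wald test (0.62), and the footprint call without SH3 replicate 2 (0.89) or 3 (0.48). IGFBP5, an IGF-binding protein, rose by 2.09 and 1.93 in RNA and by 2.14 and 2.64 in footprints. Its calls were lost without single libraries: over the settings tried its RNA values spanned 1.54 to 3.14 in SH2 and, in SH3, 1.33 to 2.97, and they were not called without SH2 replicate 3 (1.64) or, in SH3, without SC replicate 1 (1.38), SC replicate 3 (1.83) or SH3 replicate 3 (1.33), or with the DESeq2 Wald test (1.90). In footprints the calls were lost without SC replicate 3 (2.09), SH2 replicate 1 (2.15) or SH2 replicate 3 (1.66) in SH2 and without SH3 replicate 3 (1.58) or with thinned libraries (2.40) in SH3. In TE, 0 of the 20 genes, of which 16 passed the footprint filter, were called by edgeR in either hairpin. At an unadjusted edgeR p under 0.05 there were 1 in SH2 and 3 in SH3, beside 2248 and 1574 of all 12531 genes. The DESeq2 Wald test called 0 and 2.

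CDKN1B encodes p27, an inhibitor of cyclin E-CDK2 that holds cells in G1. It had the highest rise of the members in RNA and in footprints in both hairpins. CDKN1B RNA measured 14.1, 16.6 and 15.5 CPM in the SC replicates, 46.1, 44.3 and 46.7 in those of SH2 and 38.7, 43.3 and 40.9 in those of SH3. The SC libraries lay far under both hairpins, with no overlap. The RNA rose 2.96-fold in SH2 (log2 change 1.57, SE 0.10, adjusted edgeR p 4.2e-08) and 2.66-fold in SH3 (log2 change 1.41, SE 0.10, adjusted edgeR p 2.67e-07).

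CDKN1B footprints measured 59.3, 50.1 and 43.3 CPM in the SC replicates, 107, 122 and 115 in those of SH2 and 165, 170 and 158 in those of SH3. The 3 groups did not overlap, and SH3 was the highest. Footprints rose by 1.17 in SH2 (SE 0.15, adjusted edgeR p 1.46e-05) and by 1.69 in SH3 (SE 0.15, adjusted edgeR p 1.38e-06). In the direct comparison SH2 lay under SH3 by a log2 difference of -0.51 (SE 0.14, adjusted edgeR p 0.0149), although SH2 RNA was not under SH3 RNA (0.16, adjusted edgeR p 0.217). The footprint difference lost its call without SH2 replicate 1 (-0.46, adjusted edgeR p 0.0545), without SH3 replicate 2 (-0.49, 0.0607) and with thinned libraries (-0.57, 0.0852).

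The footprint-to-RNA ratio of CDKN1B in SC was high, at 2.03, 1.57 and 1.45 on the log2 scale, the 99.1th percentile of 12531 genes. It stood at 1.2, 1.46 and 1.30 in SH2 and at 2.07, 1.96 and 1.93 in SH3, so that SH2 overlapped SC only through the lowest SC value and SH3 lay above SH2 throughout. Neither hairpin was called against SC in TE: the difference was -0.41 in SH2 (adjusted edgeR p 0.185) and 0.28 in SH3 (adjusted edgeR p 0.517). Between the hairpins CDKN1B TE differed by -0.69 (SE 0.16, 95% interval -1.03 to -0.36, adjusted edgeR p 0.0933). That difference was called with only the groups compared (-0.70, adjusted edgeR p 0.0439) and with the DESeq2 Wald test (-0.68, adjusted DESeq2 p 0.00511). In the other 11 of 13 alternatives it was not called.

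CDKN1B and APAF1 were the members that moved furthest, one higher and one lower in both hairpins, and the sequences that precede their transcript starts are shown so that their base composition and basic motifs can be compared. The 250 bases before the RefSeq start are given 5' to 3' on the gene's strand, from GRCh38.p14, at chr12:12717118-12717367 (+) for CDKN1B and chr12:98645040-98645289 (+) for APAF1. Capitals mark a CCAAT box (CCAAT or, on the other strand, ATTGG) and a GC box (GGGCGG or CCGCCC).
CDKN1B: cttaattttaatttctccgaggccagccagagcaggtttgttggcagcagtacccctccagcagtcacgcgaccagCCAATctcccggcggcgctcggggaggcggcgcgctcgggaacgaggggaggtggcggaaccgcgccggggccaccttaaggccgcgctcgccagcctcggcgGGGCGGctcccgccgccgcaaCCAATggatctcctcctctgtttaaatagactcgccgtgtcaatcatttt
APAF1: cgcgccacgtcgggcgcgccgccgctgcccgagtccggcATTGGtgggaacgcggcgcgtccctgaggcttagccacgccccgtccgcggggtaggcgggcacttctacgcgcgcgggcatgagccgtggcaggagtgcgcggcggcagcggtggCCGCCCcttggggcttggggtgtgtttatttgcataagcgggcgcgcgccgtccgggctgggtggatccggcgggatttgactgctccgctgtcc
The CDKN1B window held 2 CCAAT boxes and 1 GC box at a GC content of 64.4%, and the APAF1 window 1 CCAAT box and 1 GC box at 73.6%. Of 35116 windows of this length in the RefSeq table, 32% held a CCAAT box and 42.6% a GC box, and the median GC content was 58%. Neither window held the E-box CACGTG, which MYC-MAX dimers bind and which occurred in 6.34% of windows, or the TATA box TATAAA, which occurred in 10.7%. Both strands were searched and no 2 marked motifs overlap. A match is a description of the letters and not of binding.

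APAF1 encodes the scaffold of the apoptosome, which activates caspase-9 once cytochrome c leaves mitochondria. APAF1 RNA measured 65.3, 65.8 and 66.9 CPM in the SC replicates, 32.0, 32.2 and 29.8 in those of SH2 and 32.2, 22.7 and 32.8 in those of SH3. The SC libraries lay close together and far above every hairpin library. APAF1 RNA fell by 1.08 on the log2 scale in SH2 (SE 0.13, adjusted edgeR p 6.32e-06) and by 1.17 in SH3 (SE 0.13, adjusted edgeR p 5.81e-06).

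APAF1 footprints measured 47.7, 48.9 and 43.8 CPM in the SC replicates, 29.6, 28.0 and 23.3 in those of SH2 and 25.2, 20.2 and 21.4 in those of SH3. The order was the same as in RNA, with no overlap between SC and a hairpin. Footprints fell by 0.79 in SH2 (SE 0.17, adjusted edgeR p 0.00119) and by 1.08 in SH3 (SE 0.17, adjusted edgeR p 0.000233). The RNA and footprint calls of APAF1 and those of CDKN1B against SC were kept under every alternative run.

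XIAP encodes an inhibitor of caspases and had the widest RNA difference between the hairpins among the members. XIAP RNA measured 40.2, 39.8 and 33.7 CPM in the SC replicates, 25.2, 28.1 and 18.6 in those of SH2 and 44.9, 40.1 and 37.7 in those of SH3. SH2 lay under both other groups, which overlapped. XIAP RNA fell by 0.66 in SH2 (SE 0.14, adjusted edgeR p 0.00107), while the SH3 difference was 0.11 (adjusted edgeR p 0.528). SH2 and SH3 differed by -0.77 (SE 0.14, adjusted edgeR p 0.00079). XIAP was 1 of 2 members called lower in SH2 RNA than in SH3 RNA, where 39.3% of all genes were called (18.9% higher, 20.4% lower).

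XIAP footprints measured 45.5, 40.9 and 32.1 CPM in the SC replicates, 36.3, 22.6 and 23.6 in those of SH2 and 71.4, 54.1 and 37.5 in those of SH3. Both hairpins overlapped SC, and the footprints of SH2 lay under those of SH3. Against SC the differences were -0.53 in SH2 (SE 0.24, adjusted edgeR p 0.0812) and 0.44 in SH3 (SE 0.23, adjusted edgeR p 0.152), neither called. Without SH2 replicate 1 the SH2 value was -0.76 and was called (adjusted edgeR p 0.0295), as it was with no filter on low counts (-0.54, 0.026). With the replicate number as a block the SH2 value was -0.53 and was called (adjusted edgeR p 0.0145), and same-numbered SC and SH2 footprint libraries deviated together in each of the 3 pairs (correlations of 0.24 to 0.29). The SH3 value was called with the block (0.44, adjusted edgeR p 0.037), where the SC and SH3 pairs correlated at -0.06 to 0.25, and without SH3 replicate 3 (0.67, adjusted edgeR p 0.0466). The direct difference between SH2 and SH3 was -0.98 (SE 0.24, adjusted edgeR p 0.00863). The RefSeq gene table lists pseudogenes of XIAP, and how reads shared with them were counted is not stated.

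Partners of CDKN1B, APAF1 and XIAP in cell death and the cell cycle were read from a list of 19 genes. In RNA, 7 were called higher and 7 lower in SH2, against 6 and 9 in SH3, with medians of -0.02 and 0.07, beside 61.4% and 53% of all genes called. Of the 17 tested in footprints, 6 were called higher and 8 lower in SH2, against 3 and 7 in SH3, with medians of -0.29 and -0.42, beside 44.2% and 35.9% of all genes called and medians of 0.00 and -0.01. CCNE2, a cyclin E that p27 inhibits, had RNA changes of -2.56 and -2.23 and footprint changes of -2.16 and -1.95. CKS1B, a cofactor in p27 degradation, had footprint changes of -1.30 and -1.26. CDKN1C, the p57 inhibitor of the same family as p27, rose in RNA by 1.69 and 1.58. CDKN1A, the p21 inhibitor of that family and named here after its values were seen, rose by 1.48 in SH2 RNA (SE 0.12, adjusted edgeR p 4.05e-07) and fell by 0.64 in SH3 RNA (SE 0.13, adjusted edgeR p 0.000771). Its direct difference between SH2 and SH3 was 2.12 (SE 0.13, adjusted edgeR p 8.93e-08). Of the relatives of XIAP, BIRC3 rose in RNA by 1.79 and 1.66, and BIRC5 (survivin) changed by -1.56 and -1.63. In TE, edgeR called 0 of the 19 in either hairpin, while 1 and 0 were called by the DESeq2 Wald test. At an unadjusted edgeR p under 0.05 there were 3 in SH2 and 0 in SH3, beside 2248 and 1574 of all 12531 genes.

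UTRN encodes utrophin, the widely expressed relative of dystrophin that links actin to the dystroglycan complex at the membrane. UTRN RNA measured 123, 158 and 139 CPM in the SC replicates, 159, 186 and 169 in those of SH2 and 235, 200 and 265 in those of SH3. SH2 lay just above SC, with its lowest library next to the highest SC library, and SH3 was the highest. UTRN RNA rose by 0.29 in SH2 (SE 0.12, adjusted edgeR p 0.0469) and by 0.74 in SH3 (SE 0.12, adjusted edgeR p 0.000179). The SH2 call was lost without SC replicate 1 (0.19, adjusted edgeR p 0.198) or 3 (0.29, 0.107), without SH2 replicate 2 (0.22, 0.164) or 3 (0.28, 0.101), with DESeq2 size factors (0.28, 0.0577), with only the groups compared (0.28, 0.0558) and with the DESeq2 Wald test (adjusted DESeq2 p 0.0519). UTRN was the other member called lower in SH2 RNA than in SH3 RNA (-0.45, SE 0.12, adjusted edgeR p 0.00939), a call lost without SH3 replicate 3 (-0.33, adjusted edgeR p 0.0696).

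UTRN footprints measured 97.4, 66.1 and 83.4 CPM in the SC replicates, 107, 128 and 103 in those of SH2 and 185, 145 and 155 in those of SH3. The 3 groups were in the same order as in RNA, without overlap. Footprints rose by 0.44 in SH2 (SE 0.16, adjusted edgeR p 0.035) and by 0.96 in SH3 (SE 0.16, adjusted edgeR p 0.000346). The SH2 call was lost without SC replicate 2 (0.32, adjusted edgeR p 0.106) or 3 (0.46, 0.076), without SH2 replicate 2 (0.35, 0.143) and with thinned libraries (0.37, 0.144). The direct difference of -0.51 (SE 0.16, adjusted edgeR p 0.0304) lost its call without SH2 replicate 1 (-0.47, 0.0875) or 3 (-0.44, 0.117), without SH3 replicate 1 (-0.42, 0.115) or 3 (-0.54, 0.0582) and with thinned libraries (-0.49, 0.0839).

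A list of dystrophin (DMD), dystroglycan, sarcoglycan, sarcospan, syntrophin and dystrobrevin genes was read beside utrophin, and 10 of 11 were tested in RNA. There, 1 was called higher and 5 lower in SH2, with 1 and 6 for SH3, at medians of -0.33 and -0.72, beside 61.4% and 53% of all genes called and medians of 0.01 and 0.03. DAG1, dystroglycan, was the gene called higher, by 0.69 and 0.68 in RNA and by 0.86 and 0.80 in footprints. DTNA, a dystrobrevin, changed by -1.52 and -0.74 in RNA, and the sarcoglycan SGCB by -0.48 and -0.94. Another sarcoglycan, SGCE, changed by -0.69 and -0.61. Of the 7 genes tested in footprints, 1 was called higher and 1 lower in each hairpin, beside 44.2% and 35.9% of all genes called. In TE, 0 of 10 genes were called by edgeR. At an unadjusted edgeR p under 0.05 there were 2 in SH2 and 1 in SH3, beside 2248 and 1574 of all 12531 genes. By the DESeq2 Wald test it was 1 and 0.

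**Figure D2:**
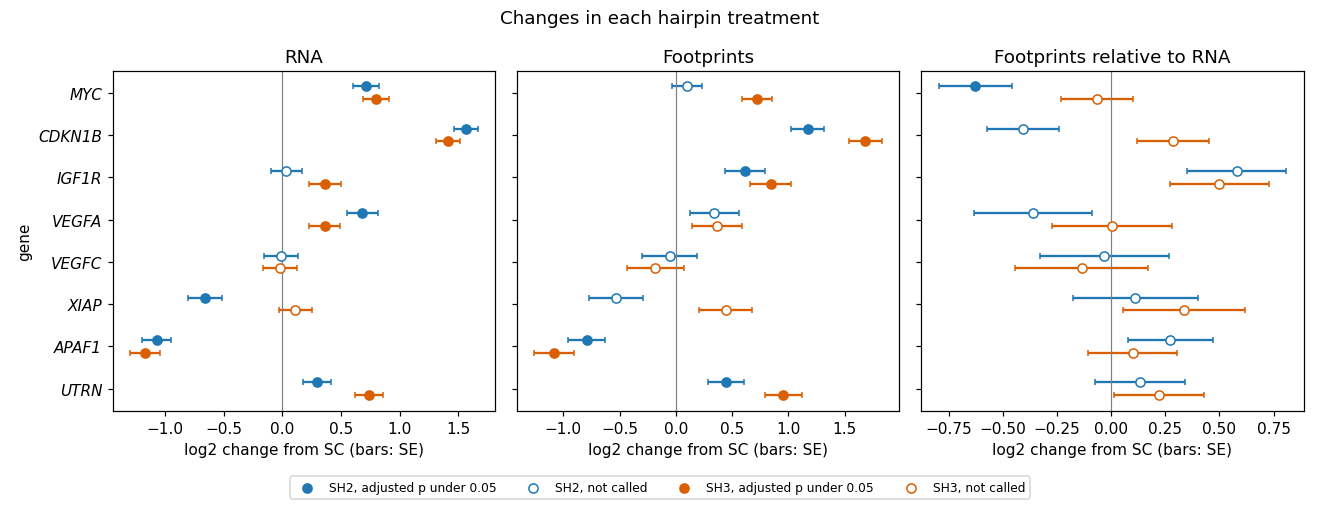
Log2 change from SC of each member tested (x axis; bars are SE) in RNA, footprints and translational efficiency, with filled points for changes called and open points for those not called. CDKN1B lies furthest right and APAF1 furthest left in RNA and footprints, and the 1 filled point in translational efficiency is MYC in SH2.

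Across the 8 members tested, TE was called for MYC in SH2, for 0 members in SH3 (0.686% of 12531 genes called, 0.375% higher and 0.311% lower) and for 0 members between SH2 and SH3 (0.016%, all lower in SH2). At an unadjusted edgeR p under 0.05 there were 3 members in SH2 (MYC, IGF1R and CDKN1B), 1 in SH3 (IGF1R) and 2 between the hairpins (MYC and CDKN1B). Of all 12531 genes, 2248 in SH2, 1574 in SH3 and 1471 between the hairpins had such a p. The DESeq2 Wald test called 1 member in SH2, 0 in SH3 and 2 between the hairpins. The median TE difference was 0.04 in SH2 and 0.16 in SH3, beside -0.02 and -0.04 over all genes. The 95% intervals ended between 0.28 and 0.98 at their upper end in SH3, for MYC and IGF1R respectively. XIAP TE differed from SC by 0.11 in SH2 and 0.33 in SH3, UTRN TE by 0.13 and 0.22, and APAF1 TE by 0.27 and 0.10. VEGFA TE differed by -0.36 and 0.00 and VEGFC TE by -0.03 and -0.14. None of these 5 genes was called, with adjusted edgeR p-values of 0.502 to 1. A joint edgeR test of any TE difference among SC, SH2 and SH3, added after the data were seen, called 2.94% of genes and 1 member, CDKN1B (adjusted edgeR p 0.0465), with MYC at 0.0588 and the other 6 members at 0.248 to 0.959. No alternative setting and no library left out is given for this joint test.

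**Figure D3:**
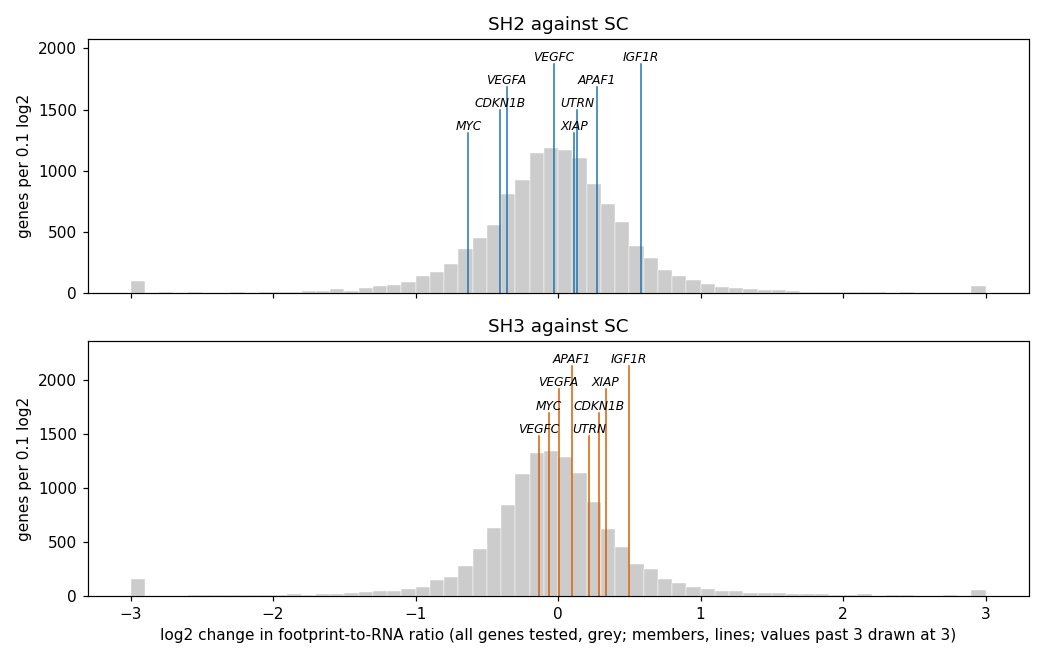
Distribution of log2 TE differences from SC over all genes tested (grey bars, genes per 0.1 log2) in SH2 and SH3, with vertical lines at the members. The members lie between -0.63 and 0.58 in SH2 and between -0.14 and 0.50 in SH3, and values past 3 are drawn at 3.

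In SC the members spanned much of the range of footprint-to-RNA ratios. CDKN1B was at the 99.1th percentile, followed by MYC (69.7), XIAP (64.1) and VEGFA (51.9), then APAF1 (41.9), UTRN (31.8), VEGFC (28.4) and IGF1R (25.2). The mean log2 ratios were 1.68 ± 0.31 for CDKN1B and 0.18 ± 0.11 for MYC, and -1 ± 0.61 for IGF1R at the other end (SD, n = 3). The SC values of IGF1R were -1.67, -0.49 and -0.83, so its place among VEGFC, UTRN and APAF1 lay within its own spread. Whether RNA and footprints were counted over the same part of each gene is not stated, and these percentiles assume it.

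**Figure D4:**
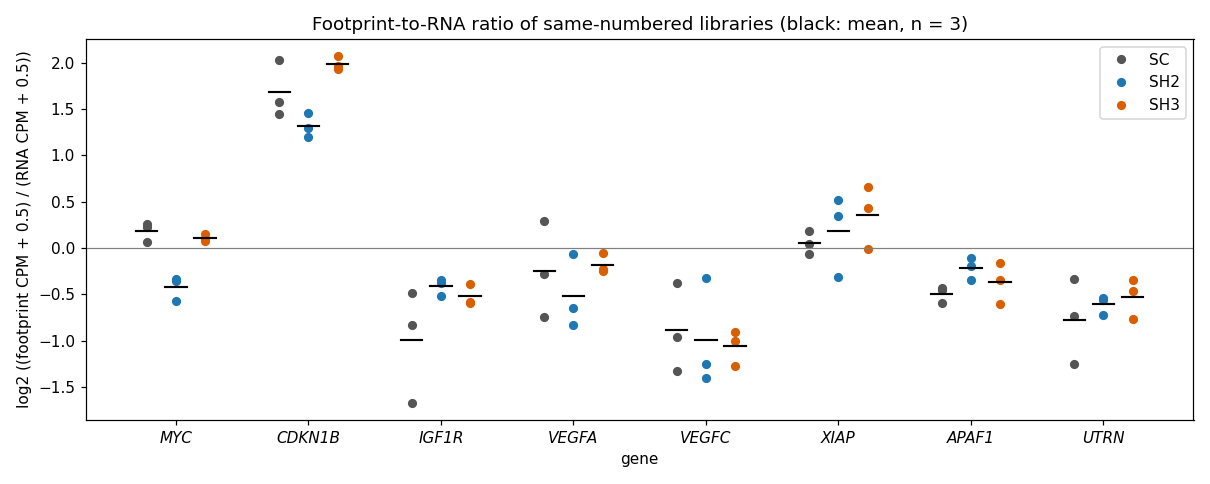
Log2 footprint-to-RNA ratio of the 8 members in same-numbered libraries (y axis; points are libraries, black lines are means, n = 3). CDKN1B has the highest ratio in every treatment, and the MYC points of SH2 (-0.57 to -0.34) lie under those of SC and SH3.

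A further 34 mRNAs with reported IRES elements were read as a list beside the members. Of the 28 tested in RNA, 13 were called higher and 7 lower in SH2 (71.4%), against 9 and 5 in SH3 (50%), with medians of 0.23 and 0.17. These shares stand beside 61.4% and 53% of all genes called, with medians of 0.01 and 0.03. Of 24 tested in footprints, 8 were called higher and 8 lower in SH2, against 7 and 4 in SH3, beside 44.2% and 35.9% of all genes called. FGF1, a fibroblast growth factor like FGF2, changed by -1.74 in SH2 and -1.63 in SH3 RNA, and GJA1, the gap junction protein connexin 43, by -1.45 and -1.58. GJA1 footprints changed by -1.21 and -1.63. PIM1, a serine/threonine kinase, rose in RNA by 1.66 and 0.61. CDK11A RNA rose by 1.09 and 0.81, with reads that its near-identical copy CDK11B may share. ODC1, the first enzyme of polyamine synthesis, had footprint changes of -1.88 and -0.57, and the SH3 call was lost in 5 of 13 alternatives: without SC replicate 2 (-0.37) or SH3 replicate 3 (-0.37), with plain library totals (-0.50), with only the groups compared (-0.56) and with thinned libraries (-0.53). LAMB1, a laminin chain, had footprint changes of -0.61 and -1.18. In TE, 0 of 28 were called higher and 2 lower in SH2, where 3.9% of all genes were called, with a median of -0.16. For SH3, 0 were called, with a median of -0.06. At an unadjusted edgeR p under 0.05 there were 8 in SH2 and 4 in SH3, beside 2248 and 1574 of all 12531 genes. The DESeq2 Wald test called 3 and 1. The 2 genes called by edgeR, named here after their values were seen, were EIF4G1, the initiation scaffold (-0.63, SE 0.14, adjusted edgeR p 0.0159), and BAG1, a co-chaperone (-0.83, SE 0.21, adjusted edgeR p 0.0336). Over 13 alternatives the BAG1 call was lost in 8, with values of -1.16 to -0.56, including each library left out except SC replicate 2. The EIF4G1 call was lost in 4, including without SC replicate 3 (-0.57) and without SH2 replicate 3 (-0.60).

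Among 22 ITAFs, 5 were called higher and 6 lower in SH2 RNA, against 3 and 7 in SH3 RNA, with medians of -0.08 and 0.06, beside 61.4% and 53% of all genes called. YBX1, a cold-shock domain RNA-binding protein, had RNA changes of -0.82 and -1.70. YBX1 footprints fell by 0.59 in SH3, less than its RNA, a call kept in all 13 alternatives, and were not called in SH2. YBX1 TE, footprints relative to RNA, was thus higher by 0.70 in SH2 (SE 0.15, adjusted edgeR p 0.0123) and by 1.12 in SH3 (SE 0.15, adjusted edgeR p 0.000556). The SH2 TE call was lost without SH2 replicate 1 (0.60). RPS25, a protein of the small ribosomal subunit, had RNA changes of -0.80 and -0.68, and MDM2, a ubiquitin ligase, of -2.02 and -0.85. RBM4 RNA rose by 0.73 and 0.97. In footprints, 2 ITAFs were called higher and 4 lower in SH2, with 4 and 3 for SH3, beside 44.2% and 35.9% of all genes called. PTBP2, of the polypyrimidine tract-binding family, changed by -0.99 and -0.93 there, and EIF4G2, an initiation factor that lacks the cap-binding contact of EIF4G1, rose by 0.51 and 0.75. The EIF4G2 call in SH2 was lost without SC replicate 2 (0.34) or 3 (0.48) and without SH2 replicate 1 (0.42). TE was called higher for 2 of 22 ITAFs in each hairpin, beside 1.44% of all genes in SH2 and 0.375% in SH3. Beside YBX1 these were, named after their values were seen, HNRNPA1 in SH2 (0.79, SE 0.19, adjusted edgeR p 0.0243) and RPS25 in SH3 (1.07, SE 0.25, adjusted edgeR p 0.0492). HNRNPA1 RNA changed by -0.84 in SH2 and its footprints by -0.03. The HNRNPA1 call was lost in 7 of 13 alternatives, including each library left out except SC replicate 1, and the RPS25 call in 7, including without SC replicate 2 (1.05) or 3 (0.86) and without SH3 replicate 1 (0.96) or 2 (0.99).

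By the profile over the 9 RNA libraries, the 2 genes most like each member were found by Pearson's r of log2 CPM, as a description across libraries that share treatment and depth. For CDKN1B they were MXD1 (r = 0.999), the MAX partner above, and KDM4B (0.998). For MYC they were ZBTB39 (0.989) and TUT1 (0.987), and for APAF1 BANK1 (0.989) and PPP2R2D (0.989). XIAP was closest to PNPLA8 (0.988) and NCKAP1 (0.984), and UTRN to NCOA6 (0.98) and CAMK1D (0.98). The nearest genes were less like VEGFA, namely DNAJC10 (0.957) and ABHD16A (0.954), VEGFC, namely SIRT2 (0.925) and MXRA8 (0.898), and IGF1R, namely DGKD (0.902) and SLCO3A1 (0.901).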

How the data were processed

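The authors deposited 1 table for all 18 libraries, with 17017 gene symbols. Its count columns are whole-number reads per gene as deposited. Per the file headers, a normalized signal from DESeq2 is given for each library, and it equals the deposited count divided by 1 factor per library. It also holds the authors' log2 fold changes with p-values, per the file headers. Bowtie 1.2.2 and DESeq2 are named in the submitters' processing notes, without their role. Aligner settings, annotation and genome build are not given in the sources used here. All 9 members matched by symbol in RefSeq (GRCh38.p14). The sequences come from a set of RefSeq promoter windows, which covered 7 of 9 members. MYC and VEGFA had no window there.

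Counts were analysed in edgeR 4.0.16 (R 4.3.3) with filterByExpr, TMM scaling and the quasi-likelihood test, two-sided, with Benjamini-Hochberg adjustment over all genes tested. RNA was fitted over 9 libraries, footprints over 9 and TE as an interaction over 18. SE is the absolute log2 change divided by the square root of F. Ratios use log2 of CPM + 0.5. The floor is 3 counts and intervals are 95%. No molecular identifiers are described, so limits for a count of 0 cover counting error only. The scripts were tested on simulated counts with the same spread for every gene and changes in SH2 footprints only. This checked the code and not the calls reported here. Replicates of a group differed by a chi-square per degree of freedom of 3.38 to 56.3, so none was taken as a copy of another and all 18 libraries were counted. SC replicate 1 stood furthest apart. In RNA it differed from SC replicates 2 and 3 at 56.3 and 49.1, against 11.5 between those. In footprints the values were 17 and 14.5, against 7.79. The replicate numbers come from the labels, which do not say what they share. Deviations from the group means correlated over 0.1 in each same-numbered pair of SC and SH2, in RNA and in footprints, but not in each pair with SH3. The block by replicate number is therefore given beside the SC and SH2 footprint results it changed.

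The members and lists were chosen with earlier results of these data known. Besides the members, genes of a list were named if called in the same direction in both hairpins, at most 4 per list and measure, those with the highest mean absolute log2 change. Alternatives were plain totals, DESeq2 1.42.0 size factors and its Wald test, no filter, only the groups compared, a block and each library left out. In RNA and in footprints the block was the replicate number. In TE it was the treatment with the replicate number, which pairs same-numbered RNA and footprint libraries. Thinning of footprint libraries and a joint TE test were added after seeing the data.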

Additional observations from a re-analysis of the deposited data

Results flagged for a closer look

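The direct edgeR comparison of SH2 with SH3 called 6 differences in the members. XIAP differed by -0.77 in RNA and by -0.98 in footprints on the log2 scale, lower in SH2 both times. UTRN differed by -0.45 in RNA and -0.51 in footprints. MYC differed by -0.62 and CDKN1B by -0.51 in footprints. Their SEs, adjusted p-values and the libraries on which they rest stand with each gene above.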

How the results depend on the processing

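Of the settings run on member log2 values, 804 kept direction and side of the threshold, 41 lost a call, 19 gained one and 48 turned the sign of a value, none of these called. Members called in RNA between SH2 and SH3, 2 as reported, were 4 with the replicate block and 1 to 3 with 1 library left out. In footprints, with all libraries thinned to equal depth, 2 members were called in SH2 and 2 between the hairpins, against 4 each. With 1 library left out, 2 to 4 were called between the hairpins. The 1 member called in TE in SH2 was 0 with DESeq2 size factors, with only the groups compared and with RNA and footprint libraries paired. It was also 0 with thinned libraries and whichever library was left out. Between the hairpins TE was called for 2 members by the DESeq2 Wald test and for 1 with only the groups compared, against 0. IGF1R and VEGFA RNA missed the threshold between SH2 and SH3 (adjusted edgeR p 0.0663 and 0.0654), and were called in 5 and 4 alternatives, among them IGF1R without SH2 replicate 3 or SH3 replicate 2 and VEGFA without replicate 1 of SH2 or SH3. The cause was not tested.

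Signs also turned as follows, on the log2 scale. Plain library totals gave VEGFC RNA 0.084 in SH2 and 0.068 in SH3 and VEGFA TE -0.029 in SH3, and VEGFA TE was -0.0018 without the filter. Thinned libraries gave VEGFC footprints 0.13 and TE 0.13 in SH2. They gave TE of 0.011 for MYC, -0.14 for VEGFA and -0.10 for APAF1 in SH3, and of -0.058 for IGF1R between the hairpins. The replicate block gave VEGFC RNA -0.0024 between the hairpins. With 1 library left out, the values that turned had these ranges. In RNA, SH2, they were -0.10 to 0.15 for IGF1R and -0.19 to 0.11 for VEGFC. In RNA, SH3, they were -0.13 to 0.10 for VEGFC and -0.0028 to 0.15 for XIAP. In RNA, SH2 against SH3, they were -0.17 to 0.018 for MYC, -0.16 to 0.12 for VEGFC and -0.038 to 0.20 for APAF1. In footprints, SH2, they were -0.39 to 0.16 for VEGFC. In footprints, SH3, they were -0.29 to 0.0299 for VEGFC. In footprints, SH2 against SH3, they were -0.17 to 0.12 for VEGFA and -0.21 to 0.33 for VEGFC. In TE, SH2, they were -0.46 to 0.22 for VEGFC, -0.082 to 0.37 for XIAP and -0.095 to 0.38 for UTRN. In TE, SH3, they were -0.23 to 0.36 for VEGFA, -0.35 to 0.098 for VEGFC and -0.011 to 0.46 for UTRN. In TE, SH2 against SH3, they were -0.32 to 0.36 for VEGFC, -0.41 to 0.035 for XIAP and -0.21 to 0.0023 for UTRN.

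Same-numbered libraries correlated over 0.1 in each pair of SC and SH2, in RNA (0.36 to 0.41) and in footprints (0.24 to 0.29). With SH3 included, or between RNA and footprints, some pairs were under 0.1: the ranges over all pairs were -0.15 to 0.49 in RNA, -0.12 to 0.30 in footprints and -0.49 to 0.50 between the kinds. A library correlated best with its own number in 14 of 18 checks in RNA and 10 of 18 in footprints. In TE the block instead paired the RNA and footprint libraries of a treatment and number. These pairs correlated at -0.49, -0.46 and 0.26 in SC, -0.3, -0.31 and 0.5 in SH2 and 0.42, 0.29 and 0.21 in SH3. With this pairing, genes called in TE were 191 in SH2 (489 without it), 23 in SH3 (86) and 0 between the hairpins (2). MYC TE in SH2 was then -0.62 (adjusted edgeR p 0.0501). With the block by replicate number, XIAP footprints were called in SH2 (-0.53, adjusted edgeR p 0.0145) and SH3 (0.44, 0.037). Between SC and SH2 it changed no other call of a member in RNA or footprints. Over all settings the genes called in TE ran from 110 to 848 in SH2, from 10 to 320 in SH3 and from 0 to 193 between the hairpins, the highest each from the DESeq2 Wald test. Thinned footprint libraries left 1483 genes called between SH2 and SH3, against 2459, 3095 in SH2, against 4576, and 2423 in SH3, against 3719. With 1 library left out, the lowest were 1541, 3740 and 2645.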

Other observations

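In the authors' deposited table, the columns named RD hold identical log2 fold changes and identical adjusted p-values for SH2 and SH3 in all 17017 genes. Across 12531 genes, which are not independent replicates, the deposited RD log2 fold change had Pearson's r of 0.858 with the edgeR TE difference of SH3 and of 0.465 with that of SH2. The median absolute difference between them was 0.00474 for SH3 and 0.261 for SH2. The p-values of RD in the authors' deposited table had Spearman's rho of 0.988 with those of the joint edgeR test of any TE difference among SC, SH2 and SH3, against 0.75 with the SH2 and 0.641 with the SH3 comparison. How RD was computed is not stated, so its values are not used above for either hairpin. For the members, the authors' deposited table gives RD log2 fold changes of -0.06 for MYC and 0.28 for CDKN1B. Their edgeR TE differences in SH3 were -0.07 and 0.28, neither called. The RD adjusted p-values in the authors' deposited table are 0.00629 for MYC and 0.000742 for CDKN1B. For IGF1R, VEGFA, VEGFC, XIAP, APAF1 and UTRN they are 0.206 to 0.954. Since RD p-values ranked like those of the joint test, they need not be tests of the RD log2 values.

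NUDT6, the gene that overlaps FGF2 on the other strand, measured 11.4 ± 2.22 CPM in SC RNA, 7.65 ± 0.654 in SH2 and 11.7 ± 1.02 in SH3 RNA (mean ± SD over 3 libraries). In footprints it measured 16.8 ± 2.14, 10.4 ± 2.8 and 15.5 ± 2.52 CPM.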
